A study of Mus musculus with 54 samples.

Results

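Subdural CNS-associated macrophages (sdCAMs) and microglia (MG) were compared after systemic lipopolysaccharide (LPS) in wild-type (WT) mice that had received the vehicle of BLZ945 (CTL). The 6 samples, out of 54 in the series, were taken as the CAM and MG columns of mice 1, 4 and 6, so that each of the 3 mice gave a pair of samples. The mice were labelled wild type with no allele named, were gavaged with vehicle and, 8 weeks after the end of that treatment, were injected with LPS, 12 h before the cells were sorted. The tissue was brain without the choroid plexuses, so sdCAMs here were the pooled macrophages of leptomeninges and perivascular spaces, and neither dural nor choroid plexus macrophages were sampled on purpose. For comparison, the same contrast was fitted in 3 mice labelled Ccr2-/- (CTL, LPS), which lack a functional Ccr2 gene in all cells, in 3 WT mice given the CSF1 receptor inhibitor BLZ945 before LPS, and in 3 untreated WT mice injected with PBS. These mice share no sample with the 3 described here. The titles of the Ccr2-/- libraries name the opposite cell type to their cell type field and library names. The latter were followed, and Mrc1 was higher (log2 fold change 8.64) and P2ry12 lower (-3.22) in the libraries then taken as sdCAMs.

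MG are the macrophages of the brain parenchyma, whereas sdCAMs line its surface and its vessels, and both are long-lived cells that depend on signalling through the CSF1 receptor. LPS, a component of the outer membrane of Gram-negative bacteria, is bound by CD14 and presented to the complex of TLR4 and MD-2. This complex signals through the adaptors MyD88 and TRIF to NF-kappaB, which drives cytokines, chemokines and acute phase genes, and to interferon regulatory factors, which drive type I interferon and, through its receptor, the interferon-stimulated genes. How much of the injected LPS reached either cell type was not measured. The study names peripheral immune reactions as a possible confounder of this route.

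The libraries of the cell types differed in more than their genes. Totals were 7699790, 2386672 and 6587760 counts in sdCAMs of mice 1, 4 and 6, and 9259710, 8275509 and 8544593 counts in MG. The 10 most abundant genes took 43.6% to 53.3% of the counts of an sdCAM library and 6.07% to 6.8% of those of an MG library, so that levels on the plain scale of library totals were compressed in sdCAMs. All levels below are therefore TMM-scaled CPM, counts brought to a common library size, in which each library is rescaled by the trimmed mean of its ratios to the others, with values of mice 1, 4 and 6 in that order. The labels marked all 3 sdCAM libraries, and none of the MG libraries, with an IEG correction that they do not explain, so the mark and the cell type cannot be told apart in these mice.

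After LPS, 2373 of 11310 genes tested were higher in sdCAMs and 2076 were lower (edgeR quasi-likelihood test with the mouse as a block, genes are termed called where the adjusted p was under 0.05 and the log2 difference exceeded 1 either way). This was 21% of the genes tested for the higher and 18.4% for the lower direction, the background against which each gene list is read. The filter on low counts keeps a gene that 1 cell type alone expresses, so such members could be called in 1 direction only. The shares called higher and lower were 10.9% and 9.71% in Ccr2-/- mice and 8.7% and 2.98% in untreated mice. With 3 mice a group, p-values measure the spread between these animals. Among the higher genes, 2335 were higher in all 3 mice and 2260 did not overlap between the cell types, and among the lower genes these counts were 2068 and 1979. The median log2 fold change was 3.32 for the higher and -1.82 for the lower genes, and 566 genes were over 5 log2 units higher in sdCAMs against 43 that were lower by as much. Without mouse 6, 2829 genes were called in place of 4449. On library totals, without TMM scaling, 1076 genes were higher and 7079 lower, since the median of all genes then lay at -2.17 against -0.28 with TMM scaling and -0.18 with median-of-ratios factors. A gene called higher by less than about 2 log2 units thus stands below 0 on that scale and is higher only relative to the bulk of genes.

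Short genes stood higher in sdCAMs as a class. Genes were put into 10 classes of equal number by length. In the shortest class, with summed exons of up to 1714 bases, the median log2 fold change was 2.85 and 62.4% of genes were called higher, whereas in the longest class the median was -0.56 and 13.4% were higher. The shortest class held 31.2%, 36.1% and 33.9% of the counts of the sdCAM libraries against 6.79% to 7.64% in MG. Among Ccr2-/- mice, whose libraries carried no mark, the median of the same class was 0.22 and 15.9% of its genes were higher. Over the 12 sdCAM libraries of the groups compared here, this share of counts was 17.7% to 40% in the 6 marked and 8.58% to 12.1% in the 6 unmarked libraries. In the 12 MG libraries it was 6.51% to 12.3%, at 11.6% to 12.3% in Ccr2-/- mice and 6.51% to 8.57% in the WT groups. The study applied a batch correction to its WT and Ccr2-/- data without stating which libraries formed a batch, and none was applied here. Mark, genotype and batch cannot be told apart between WT CTL and Ccr2-/- CTL mice. A fit with each library's trend on gene length as an offset, chosen after these values were seen, called 2254 of 11111 genes higher (20.3%) and 1570 lower (14.1%). Values of this fit are given below for named genes whose call it changes, and what produced the trend was not tested.

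**Figure D1:**
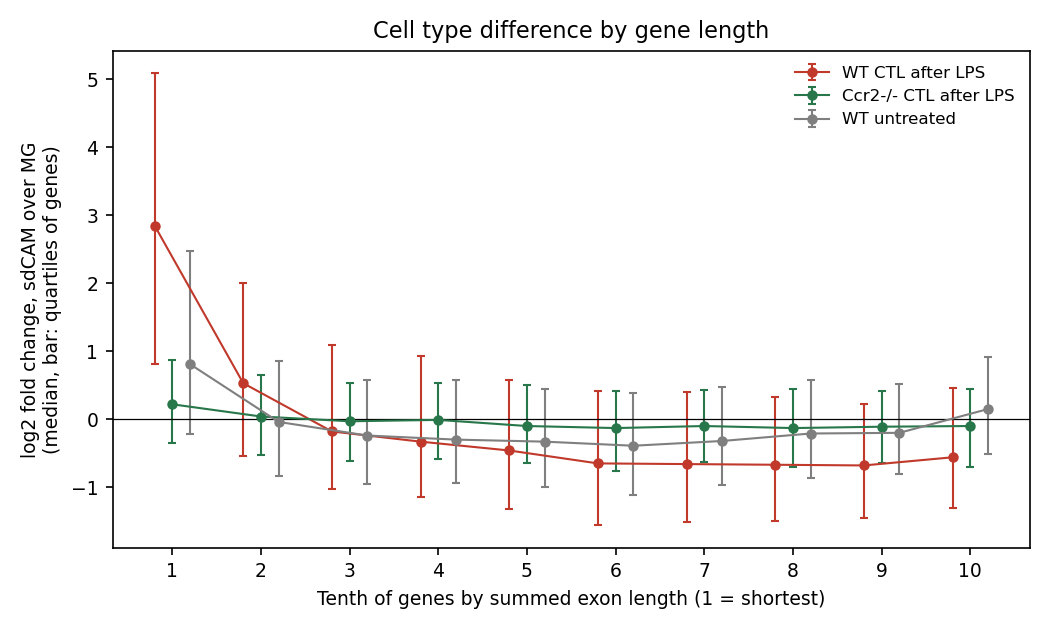
Median log2 fold change of sdCAM over MG (y axis, bars show the quartiles of genes) in 10 classes of genes from the shortest to the longest summed exons (x axis), in WT CTL mice after LPS, in Ccr2-/- CTL mice after LPS and in untreated WT mice. The shortest class lay at 2.85 in WT mice after LPS and at 0.22 in Ccr2-/- mice, and the medians of WT CTL mice after LPS lay below 0 from the third class on.

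Markers separated the cell types as labelled. Of the 16 sdCAM markers, 15 were called higher in sdCAMs (background 21%), and of the 14 MG markers tested, 12 were called lower and none higher (background 18.4%). Mrc1, which encodes the mannose receptor CD206 by which these cells are commonly sorted, lay at 518, 602 and 337 CPM in sdCAMs and at 4.46, 2.59 and 2.73 CPM in MG. The groups were far apart in each mouse, at a log2 fold change of 7.21 ± 0.46 (SE, adjusted p = 1.23e-08). The study names CD206 as a sorting marker of sdCAMs, so this difference may be set by the sort and is no independent check of the labels. Pf4, the chemokine platelet factor 4, reached 15743, 11324 and 6965 CPM in sdCAMs and was held to at most 3 counts in each MG library, at least 63353-fold lower. Cd163, the scavenger receptor for haemoglobin, lay at 290, 623 and 236 CPM against 0.29, 1.54 and 0.178 CPM in MG. Stab1, the only sdCAM marker not called, went the other way in all 3 mice, with 290, 396 and 260 CPM in sdCAMs and 603, 651 and 502 CPM in MG (log2 fold change -0.91 ± 0.34, adjusted p = 0.0437).

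Markers of sdCAM subsets varied most between the mice. Lyve1, which marks a perivascular and leptomeningeal subset, lay at 13.2, 629 and 69.5 CPM, Folr2 at 6.43, 71.5 and 20.9 CPM, and the lectin gene Cd209f at 4.09, 149 and 10.8 CPM. All of these were highest in mouse 4, as were 12 of the 16 sdCAM markers, and mouse 1 was lowest in 9. Mouse 4 was also the sdCAM library of least depth. In these pooled cells, a smaller share of a subset and less RNA per cell cannot be told apart.

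MG markers remained detectable in sdCAMs. P2ry12, the receptor by which MG sense ADP, lay at 320, 842 and 650 CPM in MG and 67.2, 105 and 113 CPM in sdCAMs, a log2 fold change of -2.59 ± 0.37 (adjusted p = 2.69e-05), and Tmem119 followed it closely (-2.77 ± 0.39). Sall1, the transcription factor that maintains MG identity, lay at 96.8, 154 and 181 CPM in MG and 19, 11.8 and 23.6 CPM in sdCAMs. For these genes the groups did not overlap. Siglech was not called, with 100, 231 and 290 CPM in sdCAMs and 262, 313 and 335 CPM in MG, and neither was Trem2, which ranged from 68.7 to 608 CPM in sdCAMs around the 138 to 274 CPM of MG. Both were called lower in sdCAMs of Ccr2-/- mice, at -3.2 and -2.32 (adjusted p = 1.67e-07 and 1.29e-06). The summed level of the MG markers was 1770 to 3478 CPM in sdCAMs against 8432 to 12674 CPM in MG, and its part in the differences below was not tested.

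**Figure D2:**
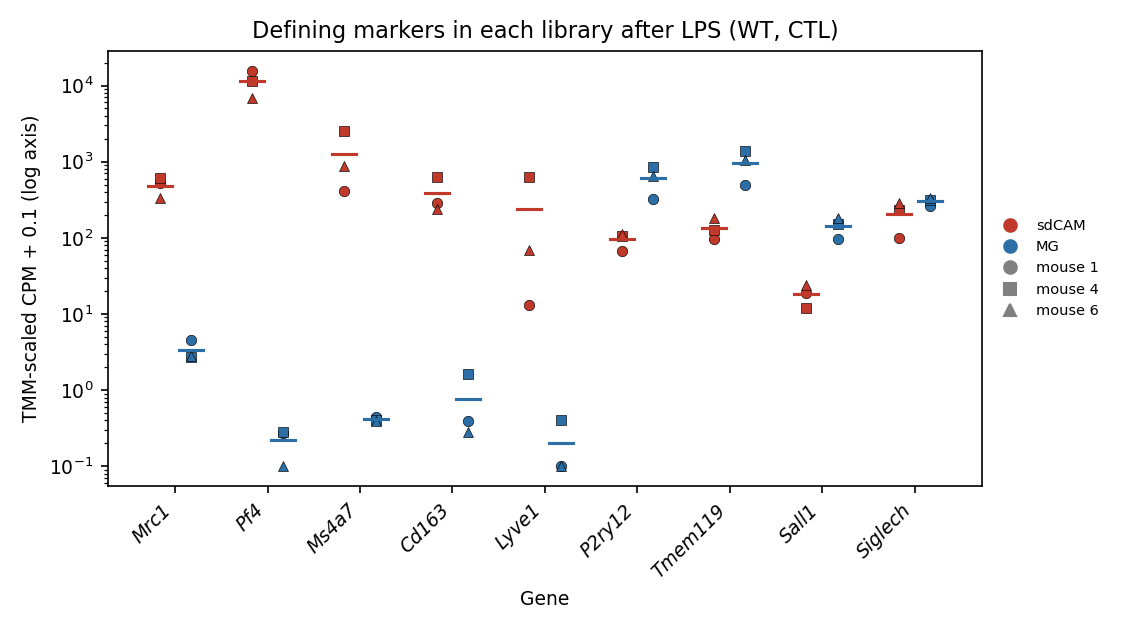
Level of 9 defining markers (x axis) in TMM-scaled CPM plus 0.1 (y axis, log scale) in the 3 sdCAM (red) and 3 MG (blue) libraries, each mouse with its own symbol and bars at the group means. The 5 sdCAM markers on the left stood at over 13 CPM in each sdCAM library and under 5 CPM in each MG library, whereas Siglech overlapped between the groups.

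The higher genes with the smallest p were mostly at or near 0 counts in MG. Beside Pf4, Cbr2 and Ms4a7, they included Fabp4, a fatty acid binding protein of macrophages and adipocytes, with 146, 321 and 135 CPM in sdCAMs and at most 3 counts in each MG library, at least 1121-fold lower. Saa2, an acute phase apolipoprotein, and Ifi203, an interferon-inducible gene, were at least 932-fold and 704-fold lower in MG. Ccl8, a monocyte chemoattractant, reached 2395, 2445 and 1604 CPM with no count in MG, which puts it at least 11996-fold lower there. Ccl24, an eosinophil chemoattractant, lay at 203, 909 and 257 CPM and at most 0.308 CPM in MG. Lst1 and S100a8 were the remaining named genes of this set, at log2 fold changes of 8.69 ± 0.49 and 8.77 ± 0.49. Both belong to the shortest class, as do Pf4, Ccl8, Cbr2 and Ccl24, while Ms4a7, Fabp4, Saa2 and Ifi203 are longer. Adjusted for length, Lst1 and S100a8 became 3.09 and 4.55, still called. Pf4 went from 16.45 to 12.36, Ccl8 from 17.36 to 14.76, Cbr2 from 12.44 to 9.91 and Ccl24 from 10.8 to 8.3, all still called. The fold values given here and for Pf4 above are not adjusted for length.

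The leading lower genes had smaller differences and summed exons of 3530 to 9567 bases. Golm1, a Golgi membrane protein, lay at 189, 472 and 342 CPM in MG and 8.19, 27.8 and 37.3 CPM in sdCAMs (-3.91 ± 0.41, adjusted p = 8.37e-07). Daglb, which synthesizes the endocannabinoid 2-arachidonoylglycerol in MG, was 3.87 log2 units lower in sdCAMs (SE 0.41). Creb3l2, a membrane-bound transcription factor, lay at 80.3, 89.5 and 59.3 CPM in MG and 4.68, 5.05 and 2.95 CPM in sdCAMs, and Zfp36l2, which promotes decay of AU-rich mRNAs, at 277, 470 and 357 CPM and 34.8, 44.6 and 22.3 CPM. Slco4a1, Gcnt1, Leng8, Cd34, Rffl and Pde3b made up the rest, at -3.19 to -4.42. All 10 stayed called with the length adjustment. Of the same genes, 8 in Ccr2-/- mice were called in the same direction, while Leng8 (0.29) and Rffl (-0.29) were not called.

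Acute phase genes made up a large part of the sdCAM libraries. All 10 tested members of the acute phase and antimicrobial list were called higher in sdCAMs, with and without the length adjustment (background 21%). The other 9 members did not pass the filter on low counts. Saa1 and Saa2, nearly absent from MG, passed it through sdCAMs only, so this count is set in part by the filter. Saa3, a serum amyloid A protein made by macrophages, took 35.8% of all counts in mouse 1 (Wilson 95% interval 35.7% to 35.8%), 23.1% in mouse 4 (23.1% to 23.2%) and 23% in mouse 6. In MG of the same mice it took 0.194% (0.191% to 0.197%), 0.0112% (0.0105% to 0.012%) and 0.0422% (0.0409% to 0.0436%). Its log2 fold change was 11.07 ± 1.16 (adjusted p = 8.87e-07). Lcn2, which binds bacterial siderophores, lay at 6803, 12484 and 7179 CPM in sdCAMs against 108, 4.26 and 12.9 CPM in MG. Saa1 reached 1102, 368 and 149 CPM, with at most 0.695 CPM in MG, and Wfdc17 reached 20562, 8525 and 9498 CPM, with at most 8.58 CPM. Saa3 of Ccr2-/- mice took 5.88% to 6.71% of sdCAM counts and 0.0619% to 0.145% of MG counts, at a log2 fold change of 6.17 (adjusted p = 2.2e-07). There 12 of 13 members tested were higher (background 10.9%). In untreated WT mice 4 of 5 were higher and none lower (backgrounds 8.7% and 2.98%), with Wfdc17 at 12.24 against 11.5 after LPS. Reads of the Saa genes can be shared with near-identical paralogs, so values of single members are uncertain to that extent.

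Of the 14 LPS response genes that the study named for these cells, 7 were called higher in sdCAMs, 1 lower and 6 were not called (backgrounds 21% higher and 18.4% lower). The list was chosen on these samples and is not independent evidence of a direction. Cxcl13, a B cell chemoattractant, lay at 3105, 3553 and 2885 CPM in sdCAMs and 14.4, 2.1 and 7.61 CPM in MG (8.93 ± 0.67, adjusted p = 2.32e-08). Ccl5, a T cell chemoattractant, lay at 71286, 30944 and 39156 CPM against 226, 23.9 and 102 CPM, and Mt1, a metallothionein, at 58816, 14917 and 16235 CPM against 163, 60.4 and 74.9 CPM. Il1rn, the IL-1 receptor antagonist, was higher by 2.56 ± 0.47, and Msr1, a class A scavenger receptor, by 1.24 ± 0.39. On library totals Msr1 turned to -0.66, below the MG level. Il1a went the other way, with 30.1, 15.1 and 71.2 CPM in sdCAMs and 114, 55.1 and 128 CPM in MG (-1.52 ± 0.37, adjusted p = 0.00381).

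The classic cytokines of this list did not separate the cell types. Tnf lay at 39.2, 49.6 and 78.3 CPM in sdCAMs and 98.1, 22.3 and 77.5 CPM in MG (-0.07 ± 0.44), and Il1b at 68.4, 9.25 and 131 CPM against 51.6, 12.1 and 52.8 CPM (0.53 ± 0.4). Both overlapped between the groups, as did Il12b and Spp1, and Tnfaip3 at -0.64 ± 0.37 and Il15ra at 0.69 ± 0.33 were not called either. With the length adjustment Tnf and Spp1, both short genes, were called lower in sdCAMs (-1.65 and -1.88) and Il15ra higher (1.15). The Ccr2-/- mice had Tnf and Spp1 called lower at -1.02 and -1.38, Il12b at -3.95 (adjusted p = 0.0195), and Tnfaip3 called higher at 1.29. The animals also differed. In MG, mouse 4 had the lowest level of all 14 genes and mouse 1 the highest of 11, and in sdCAMs mouse 4 was lowest in 9.

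**Figure D3:**
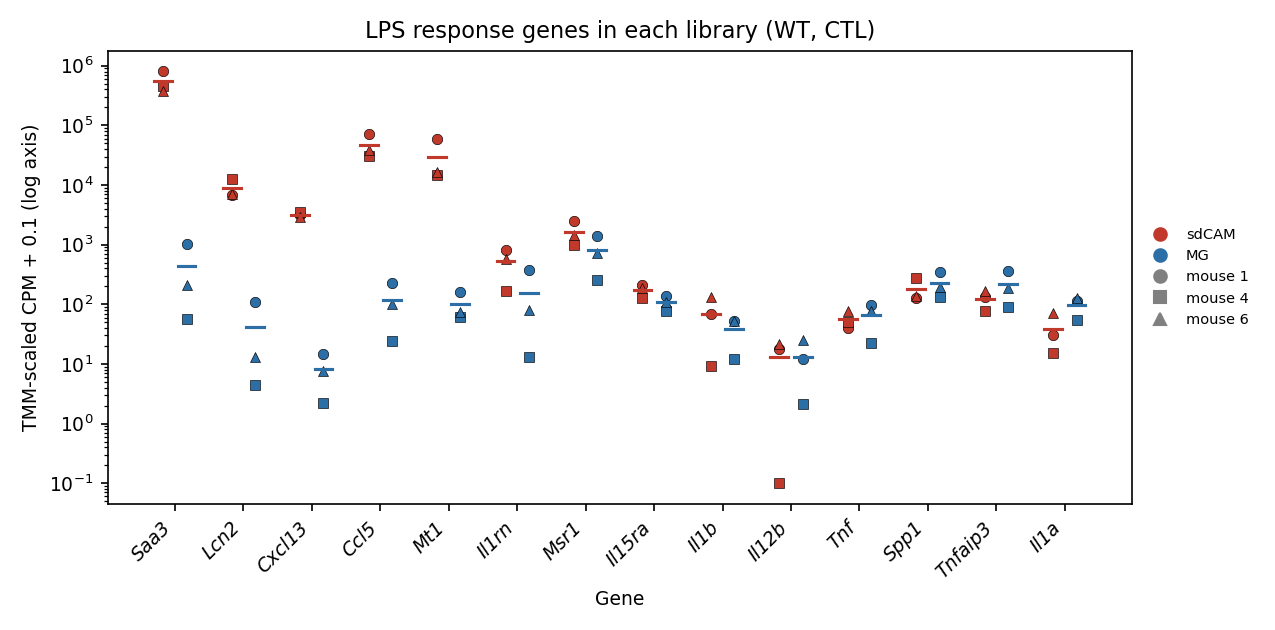
Level of the 14 LPS response genes (x axis) in TMM-scaled CPM plus 0.1 (y axis, log scale) in the 3 sdCAM (red) and 3 MG (blue) libraries, each mouse with its own symbol and bars at the group means. Saa3, Lcn2, Cxcl13, Ccl5 and Mt1 did not overlap between the cell types, whereas the other 9 genes, Il1b, Il12b, Tnf and Spp1 among them, did.

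Promoters of 3 genes of these groups are shown to give the sequences from which they are transcribed, Saa3 for the acute phase, Cxcl9 for the chemokines and Isg15 for the interferon-stimulated genes. Each runs from 250 bases before to 50 bases after the RefSeq start (GRCm38.p6, 5′ to 3′ on the gene's strand), and 5 of 6 genes looked up had an entry, all but Ccl5. Capitals mark matches on either strand to an NF-kappaB motif, GGGNNTTCC, or to an interferon-stimulated response element (ISRE), 2 GAAA blocks with 2 bases between them, which share no letters in these promoters. Of 32851 promoters of this length, 5.82% held the first and 3.44% the second.
Saa3, chr7:46715627-46715926, minus strand: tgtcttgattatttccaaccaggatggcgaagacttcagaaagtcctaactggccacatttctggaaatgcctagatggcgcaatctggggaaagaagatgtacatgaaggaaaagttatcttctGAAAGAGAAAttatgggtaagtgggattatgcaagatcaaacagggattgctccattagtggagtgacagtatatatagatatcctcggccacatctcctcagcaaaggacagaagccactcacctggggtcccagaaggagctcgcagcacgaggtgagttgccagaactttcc
Cxcl9, chr5:92328030-92328329, minus strand: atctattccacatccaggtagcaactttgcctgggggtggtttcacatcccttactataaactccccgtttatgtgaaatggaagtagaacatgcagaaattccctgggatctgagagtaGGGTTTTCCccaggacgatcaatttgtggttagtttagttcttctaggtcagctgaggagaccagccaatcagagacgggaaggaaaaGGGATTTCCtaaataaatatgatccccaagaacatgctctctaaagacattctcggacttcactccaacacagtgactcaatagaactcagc
Isg15, chr4:156200769-156201068, minus strand: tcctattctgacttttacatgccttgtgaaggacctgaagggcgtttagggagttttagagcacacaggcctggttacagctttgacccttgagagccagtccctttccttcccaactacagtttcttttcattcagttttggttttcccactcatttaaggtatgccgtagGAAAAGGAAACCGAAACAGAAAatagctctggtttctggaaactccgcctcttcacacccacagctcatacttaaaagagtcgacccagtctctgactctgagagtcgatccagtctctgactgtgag
Cxcl9 held the NF-kappaB motif 130 and 42 bases before the start, Saa3 held the ISRE motif 125 bases before it, and Isg15 held 3 overlapping ISRE matches 78, 72 and 66 bases before it. Neither motif was found in these letters for Lcn2 or P2ry12. A match is a description of the sequence and not of binding.

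Chemokines were mostly higher in sdCAMs, and fewer of them were called with the length adjustment. Of the 19 tested, 17 were called higher and none lower (backgrounds 21% and 18.4%), at a median log2 fold change of 5.57 against -0.28 for all genes. Ccl8, Pf4 and Ccl24, nearly absent from MG, passed the filter on low counts through sdCAMs only, and Pf4 is also an sdCAM marker. The count is thus set in part by the filter and by how the cells are defined. Cxcl9, which attracts T cells through CXCR3, lay at 1542, 219 and 1236 CPM in sdCAMs and 8.17, 1.67 and 6.18 CPM in MG (7.43 ± 0.46), and kept this difference with the length adjustment (7.48). Cxcl2, a neutrophil attractant, lay at 1507, 187 and 369 CPM against 19.2, 0.987 and 7.01 CPM. The median length of these genes was 1295 bases, and with the adjustment 13 were called higher. Ccl3 and Ccl4, the macrophage inflammatory proteins, and Ccl2, the ligand of CCR2, were among those lost. Ccl4 lay at 1866, 505 and 3794 CPM in sdCAMs and 126, 10.8 and 75 CPM in MG (5.04 ± 0.49), a difference of 0.61 with the adjustment (adjusted p = 0.233), and Ccl3 and Ccl2 went from 3.69 and 3.71 to -0.34 and 0.84. In Ccr2-/- mice 13 of 21 chemokines were higher and 1 lower (backgrounds 10.9% and 9.71%). There these 3 genes lay at -0.57, -0.62 and -0.55 and were not called. Ccl22 and Cxcl16 were not called in WT CTL mice after LPS. Untreated WT mice had 10 of 17 chemokines higher and none lower (backgrounds 8.7% and 2.98%), with Cxcl9 at 8.03. The interaction of cell type and condition, given below, called 3 of 20, all with a higher ratio after LPS (background 3.17%).

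Cytokines were called in both directions, at shares not far from those of all genes (backgrounds 21% and 18.4%). Of 19 tested, 5 were higher in sdCAMs (Il1rn, Il10, Il18, Il27 and Csf3) and 5 lower (Il1a, Il16, Csf1, Tgfb1 and Osm). Csf3, the granulocyte growth factor, lay at 35.1, 5.05 and 40 CPM in sdCAMs and at most 0.232 CPM in MG, and the anti-inflammatory Il10 at 10.8, 4.21 and 2.21 CPM with at most 3 counts in each MG library, at least 32.1-fold lower. Csf1, the growth factor of both cell types, lay at 12.9, 10.9 and 8.35 CPM in sdCAMs and 50.2, 27.7 and 42.9 CPM in MG. Il6 was low in both, at 4.21 to 16.7 CPM in sdCAMs and 2.96 to 12.9 CPM in MG, and was not called. Il18 turned from 1.48 to -1.72 with the length adjustment and the calls of Il27 (0.3), Il16 (-0.69) and Tgfb1 (-0.97) were lost. Cytokines in Ccr2-/- mice were higher in 6 of 19 and lower in 7 (backgrounds 10.9% and 9.71%).

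Cytokine receptors lay on the MG side. Of 25 tested, 11 were called lower in sdCAMs and 1, Csf2ra, higher (backgrounds 18.4% and 21%), with a median log2 fold change of -0.91. With the length adjustment 10 were lower and 2 higher. Csf1r, on which both cell types depend, lay at 4305, 5189 and 4860 CPM in MG and 764, 985 and 828 CPM in sdCAMs (-2.48 ± 0.41, adjusted p = 0.000129). Ifngr1, a chain of the interferon-gamma receptor, was lower by 2.38 ± 0.37 on the log2 scale, and Il10ra by 2.47 ± 0.35. Il13ra1, Tgfbr1 and Tgfbr2 were lower by 2.07, 2.03 and 2.09. Of 24 receptors in Ccr2-/- mice, 7 were lower and 2 higher (backgrounds 9.71% and 10.9%). There Csf1r was called at -1.43 and Ifngr1 at -1.81, and Il10ra was not called at -0.9.

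Of 10 chemoattractant receptors tested, 3 were higher and 4 lower in sdCAMs (backgrounds 21% and 18.4%). Fpr2, a formyl peptide receptor that detects bacterial products, lay at 698, 459 and 865 CPM in sdCAMs and 10.1, 0.493 and 4.46 CPM in MG (7.64 ± 0.64), and Fpr1 and the chemokine receptor Ccr1 were higher by 4.25 and 2.06. Those lower included Cx3cr1, C3ar1 and C5ar1. C5ar1, a receptor for the complement fragment C5a, lay at 323, 521 and 382 CPM in sdCAMs against 1080, 1161 and 1053 CPM in MG (-1.45 ± 0.36), and at 0.15 in Ccr2-/- mice. Cx3cr1, the fractalkine receptor, was lower by 1.3 ± 0.38, and its call and that of C3ar1 were lost with the length adjustment (-0.83 and -0.72).

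The sensors of LPS were not higher in sdCAMs as a set. Of 25 genes for Toll-like receptors and LPS sensing, 4 were higher, 6 lower and 15 not called (backgrounds 21% higher and 18.4% lower). Tlr4 lay at 29.8, 39.5 and 27 CPM in sdCAMs and 72.1, 105 and 75.4 CPM in MG (-1.39 ± 0.35, adjusted p = 0.0044). After length adjustment it was not called (-0.81, adjusted p = 0.0564), and in Ccr2-/- mice it lay at 0.48. Its partner MD-2, encoded by Ly96, was high, with 409, 837 and 438 CPM in sdCAMs against 10.1, 11.2 and 11.7 CPM in MG (5.59 ± 0.43, adjusted p = 2.6e-08), 2.37 with the adjustment and 1.69 in Ccr2-/- mice. Cd14 overlapped, at 536, 474 and 718 CPM against 1207, 384 and 648 CPM (-0.23 ± 0.39), and was called lower with the adjustment (-1.62). Tlr8, a receptor for RNA, lay at 34.5, 43.7 and 30.7 CPM in sdCAMs and at most 3.59 CPM in MG, whereas Tlr2, Tlr3, Tlr7 and Tlr13 were lower, Tlr3 by 2.8 ± 0.39.

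Of 20 genes of the NF-kappaB pathway and its feedback, 4 were higher and 1 lower in sdCAMs (backgrounds 21% and 18.4%). Nfkbia, which encodes the inhibitor IkappaB-alpha, lay at 1251, 1489 and 1411 CPM in sdCAMs and 432, 253 and 325 CPM in MG (2.07 ± 0.38), but at 0.42 with the length adjustment. Dusp1 and Dusp2, phosphatases that switch off MAP kinases, were higher by 1.26 and 3.49 and stayed called. Rela, the NF-kappaB subunit p65, was lower at -1.51 ± 0.35 and lay at 0.08 in Ccr2-/- mice. There 9 of 21 genes of the list were higher and none lower (backgrounds 10.9% and 9.71%). Of 15 immediate early genes, Fos and Dusp1 were higher, Ier3 was lower and 12 were not called (backgrounds 21% higher and 18.4% lower). The IEG correction is marked on all the sdCAM libraries and no MG library, so cell type and mark cannot be told apart here. The study states that it left immediate early genes out of its bulk RNA-seq analysis. Fos lay at 130, 115 and 97.4 CPM in sdCAMs and 36.6, 5.92 and 14.1 CPM in MG (2.93 ± 0.46). Of 12 glucocorticoid-responsive genes, the metallothioneins Mt1 and Mt2 were higher and Sgk1 and Zbtb16 were called lower (backgrounds 21% and 18.4%). Fkbp5 and Tsc22d3, which report glucocorticoid receptor activity, were not called (-0.58 ± 0.36 and -0.3 ± 0.34). Zbtb16 overlapped between the groups, at 62, 23.6 and 34.1 CPM in sdCAMs and 57.8, 101 and 90.2 CPM in MG, and was not called after length adjustment (-0.54, adjusted p = 0.293).

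Interferon-stimulated genes were higher in sdCAMs or not called. Of 32 tested, 17 were higher and none lower (backgrounds 21% and 18.4%), with a median log2 fold change of 1.55. With the length adjustment 20 of 31 were higher. Isg15, a ubiquitin-like modifier, lay at 511, 443 and 719 CPM in sdCAMs and 14, 2.71 and 5.17 CPM in MG (6.54 ± 0.53), 2.49 with the adjustment. Zbp1, a sensor of nucleic acids, lay at 520, 538 and 1010 CPM against 46.4, 14.6 and 29.1 CPM (4.61 ± 0.46), and Bst2, or tetherin, at 1508, 5128 and 2915 CPM against 79, 45.6 and 60.5 CPM. Xaf1 was higher by 3.64 ± 0.37 and Irf7, the master regulator of interferon transcription, by 2.4 ± 0.38. Ifi204 and Gbp7 were not called, and Ifi204 was called higher after length adjustment (1.07, adjusted p = 0.0107). The count in Ccr2-/- mice was 21 of 32 higher (background 10.9%) and none lower, and in untreated WT mice 10 of 32 higher (background 8.7%).

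Genes of antigen presentation were divided. Of 9 MHC class II genes tested, the 3 chains H2-Aa, H2-Ab1 and H2-Eb1 and the invariant chain Cd74 were higher in sdCAMs (background 21%). H2-Aa lay at 273, 205 and 438 CPM in sdCAMs and 1.39, 0 and 1.49 CPM in MG (8.57 ± 0.67), and Cd74 at 1061, 1105 and 1652 CPM against 176, 91.7 and 174 CPM (3.15 ± 0.39). H2-DMa and H2-DMb1, which load peptide onto class II, overlapped between the groups, at -0.16 and -0.47, and were called lower in sdCAMs of Ccr2-/- mice (-2.56 and -1.67). After length adjustment 2 of the 9 genes were called lower in WT mice, H2-DMb1 among them (-1.96, adjusted p = 0.00119). Of 11 genes of class I presentation, 6 were higher and 1, Erap1, lower (backgrounds 21% and 18.4%). The immunoproteasome subunits Psmb8, Psmb9 and Psmb10 were higher by 3.2, 3.73 and 3.35, and stayed called with the length adjustment. B2m, the light chain of class I, lay at 12277, 27575 and 21829 CPM against 2368, 1742 and 1874 CPM, but turned to -0.4 with the adjustment (adjusted p = 0.502), while Tap1 became called at 1.25.

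Of 16 scavenger and endocytic receptors tested, 10 were higher in sdCAMs and 3 lower (backgrounds 21% and 18.4%), the same counts as with the length adjustment. Among the higher ones, Mrc1, Cd163, Dab2 and Cd209f are also on the list of sdCAM markers. The count is thus set in part by how the cells are defined. Timd4, which binds phosphatidylserine on dying cells, lay at 98.2, 76.6 and 124 CPM in sdCAMs with no count in MG (at least 557-fold lower there). Dab2, an endocytic adaptor, was higher by 1.31 ± 0.35 and fell below the MG level on library totals. Mertk, by which MG take up apoptotic cells, lay at 510, 631 and 453 CPM in MG and 141, 131 and 139 CPM in sdCAMs (-1.94 ± 0.35), and Lrp1 was lower by 2.16 ± 0.35. Of 22 lysosomal genes, 3 were higher and 6 lower (backgrounds 21% and 18.4%). Npc2, which exports cholesterol from lysosomes, lay at 806, 1161 and 824 CPM in sdCAMs and 187, 177 and 178 CPM in MG, and Psap, the precursor of the saposins, was lower by 2.25 ± 0.39. Ctss, which degrades the invariant chain, overlapped at -0.15 ± 0.4, and was called lower with the adjustment (-2.42) and in Ccr2-/- mice (-1.54).

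Of 15 complement genes, the components C2 and C3, the stabilizer properdin (Cfp) and the inhibitor Cd55 were higher in sdCAMs. C3ar1, C5ar1 and Itgax were lower (backgrounds 21% higher and 18.4% lower), Itgax not after length adjustment (-3.22, adjusted p = 0.0841). Cfp lay at 71.6, 233 and 102 CPM in sdCAMs and at most 1.8 CPM in MG. C1qa and C1qb, chains of the initiator C1q, ranged widely in sdCAMs, C1qb at 2800, 20959 and 7607 CPM against 3248, 3337 and 3373 CPM in MG (1.2 ± 0.55, not called). Both are short and were called lower with the length adjustment (-2.33 and -1.83), and in Ccr2-/- mice they lay at -1.1 and -0.42.

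Iron genes were divided between the cell types. Of 13 genes for iron and heme tested, 5 were higher in sdCAMs and 3 lower (backgrounds 21% and 18.4%). Cp, the ferroxidase ceruloplasmin, lay at 3353, 2533 and 2514 CPM in sdCAMs and 164, 11.7 and 51.6 CPM in MG (5.86 ± 0.63). The ferritin chains Fth1 and Ftl1 were higher by 5.34 and 4.12, Fth1 at 33994, 95462 and 68301 CPM. Slc40a1, the iron exporter ferroportin, lay at 2.92, 6.73 and 12.3 CPM in sdCAMs and 27.2, 132 and 57.5 CPM in MG (-3.14 ± 0.47), and the transferrin receptor Tfrc was lower by 1.82. Ferritin genes have many processed pseudogenes, so their single values are uncertain.

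Among 11 inducible metabolic enzymes, 5 were higher and 2 lower (backgrounds 21% and 18.4%). Slc7a2, an arginine transporter, lay at 118, 23.6 and 112 CPM in sdCAMs and at most 2.43 CPM in MG (6.04 ± 0.53), and Ptges, which makes prostaglandin E2, was higher by 3.84 ± 0.65. Ptgs1, the constitutive cyclooxygenase, and Alox5, the 5-lipoxygenase, were lower by 2.02 and 2.56. Of 12 metalloproteinases and inhibitors, 7 were higher and 1, Adam17, lower (backgrounds 21% and 18.4%). Mmp9, or gelatinase B, lay at 21.9, 46.3 and 14.7 CPM with no count in MG, at least 154-fold lower there, and Timp1, its inhibitor, at 99.7, 241 and 195 CPM against at most 0.29 CPM. Of 20 genes of glycolysis and the HIF-1 response, Hk2 was higher (2.78 ± 0.46), Slc2a1 and Slc16a3 were lower and 17 were not called (backgrounds 21% higher and 18.4% lower).

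Adhesion genes were lower more often than higher in sdCAMs, with 10 of 19 lower and 5 higher (backgrounds 18.4% and 21%). The higher ones included Vcam1 (3.17 ± 0.55), and the lower ones Itgb5, Selplg and Icam1. Itgb5 lay at 546, 1382 and 874 CPM in MG and 95, 176 and 120 CPM in sdCAMs. After length adjustment the counts were 7 higher and 7 lower, and in Ccr2-/- mice 6 and 6 (backgrounds there 10.9% and 9.71%). Among 10 purinergic genes, P2ry12, P2ry13, Adora3 and Entpd1 were lower and P2ry14 and P2rx7 were higher (backgrounds 18.4% and 21%). P2ry12 and P2ry13 are also on the MG marker list. Adora3 was not called after length adjustment (-0.94, adjusted p = 0.0514).

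Genes of TGF-beta signalling, on which the MG state depends, were lower in sdCAMs or not called. Of 12 tested, 9 were lower and none higher (backgrounds 18.4% and 21%), with a median log2 fold change of -1.74 against -0.28 for all genes. Tgfbr1 lay at 493, 1390 and 1006 CPM in MG and 236, 138 and 296 CPM in sdCAMs, and Smad7, an inhibitor that the pathway induces, at 34.5, 60 and 44.7 CPM against 7.31, 2.52 and 15 CPM. The median length of the list was 5292 bases, and with the length adjustment 6 stayed lower, Tgfbr1 at -1.44 and Smad7 at -2.03 among them. In Ccr2-/- mice 4 of 13 were lower (background 9.71%), and in untreated WT mice none of 12 (background 2.98%), at a median of -0.54. The interaction of cell type and condition, given below, called none of 12 in either direction (backgrounds 3.17% and 1.24%). Of 19 transcription factors, Maf, Cebpb, Klf2, Klf4 and Nr1h3 were higher in sdCAMs and Sall1, Sall3, Runx1, Smad3 and Bhlhe41 were lower (backgrounds 21% and 18.4%). The calls of Cebpb (-0.87), Klf2 (0.49) and Bhlhe41 (-0.45) were lost after length adjustment. Maf lay at 1510, 1056 and 644 CPM in sdCAMs and 85.7, 161 and 103 CPM in MG (3.16 ± 0.42), whereas Spi1, which encodes PU.1, was at 427, 421 and 397 CPM against 258, 181 and 215 CPM (0.94 ± 0.34, not called).

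**Figure D4:**
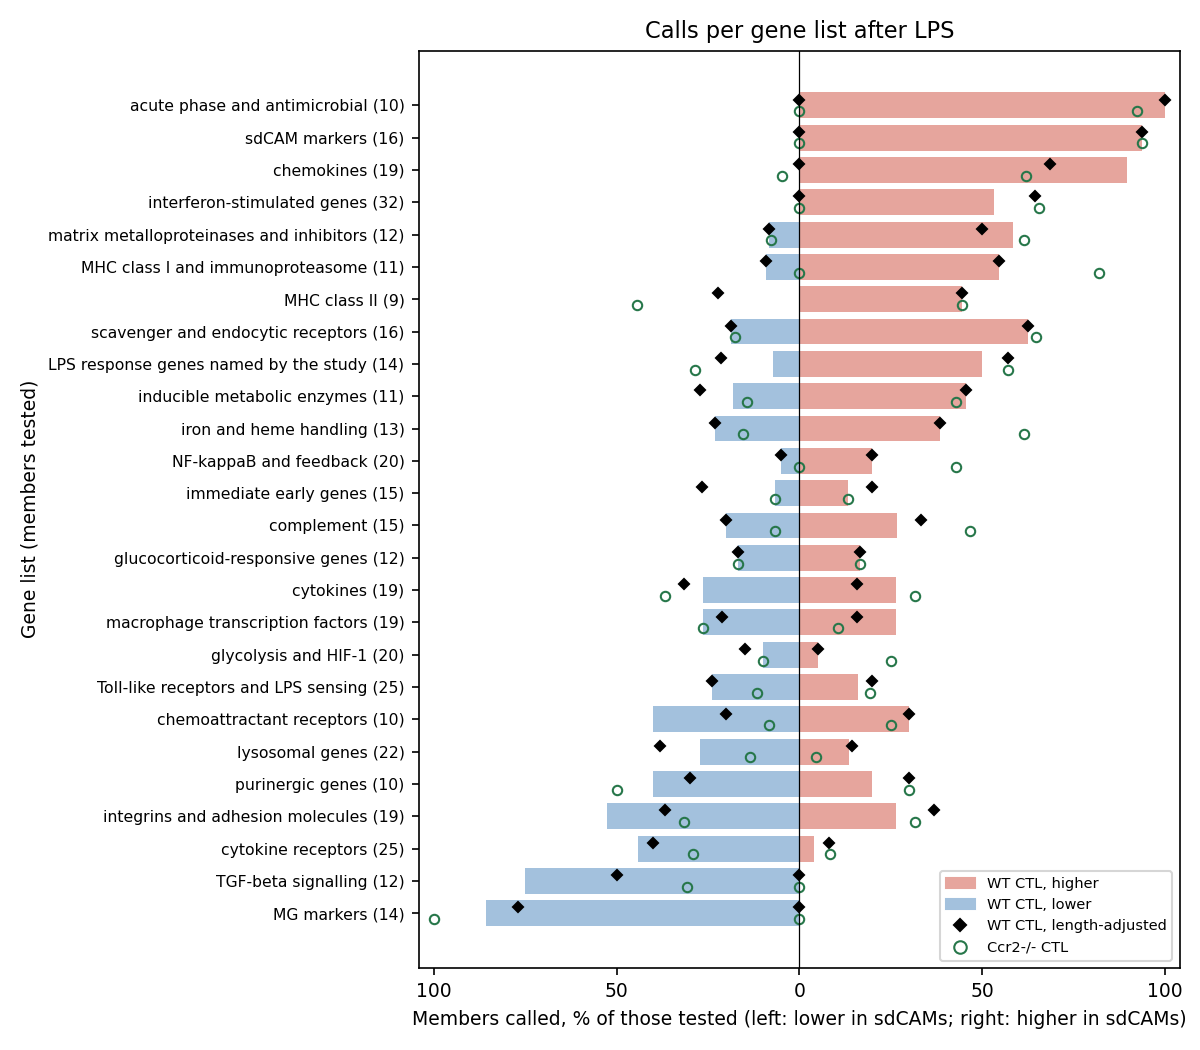
Share of the tested members of each gene list (y axis, number tested in brackets) called lower in sdCAMs (left) or higher in sdCAMs (right), as percent (x axis). Bars are WT CTL mice after LPS, diamonds the length-adjusted fit of the same mice and open circles Ccr2-/- CTL mice after LPS. Acute phase genes were called higher in 10 of 10, a count set in part by the filter on low counts. TGF-beta genes were called lower in 9 of 12, with 6 of 12 after length adjustment.

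The same contrast in other mice gave a measure of how far these calls held. In Ccr2-/- mice, 1235 of 11293 genes were higher (10.9%) and 1096 lower (9.71%). Of the genes tested in both, 647 were called higher in both genotypes, which was 28.9% of the WT calls and 58.4% of the Ccr2-/- calls, and 571 were called lower in both, 27.6% and 53%. Only 34 of the WT higher calls and 8 of the lower calls were called in the opposite direction. With the length adjustment in both fits, 658 higher and 477 lower calls were shared and 17 and 5 were opposite. In mice given BLZ945 before LPS, 188 of 11246 genes were higher (1.67%) and 23 lower (0.205%), and 182 and 22 of these were shared with the CTL mice. This count rested on single animals, with 0 calls without mouse 8 by edgeR (1127 genes at an unadjusted p under 0.05, and 708 calls by DESeq2), 68 without mouse 11 and 1369 without mouse 12, whose sdCAM library was the marked one of the group, and with 771 calls when the mouse block was dropped. Whether the contrast differed between genotypes or treatments was not tested.

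Untreated WT mice showed which differences were there without LPS. In these, 962 of 11057 genes were higher in sdCAMs (8.7%) and 329 lower (2.98%). The count was 202 in all without mouse 14, 450 without mouse 9 and 2182 without mouse 15, whose sdCAM library was the unmarked one of the group. Of the genes tested in both conditions, 684 were called higher in both, 33.3% of the calls after LPS and 76.6% of those at rest, and 264 were called lower in both, 12.8% and 81%. The interaction of cell type and condition was fitted over the 12 libraries of CTL mice after LPS and untreated mice. The CTL mice differed from the untreated mice also in the vehicle, so LPS and vehicle cannot be told apart in it. The IEG mark was not balanced either. It lay on all sdCAM libraries of the CTL mice, and on those of untreated mice 9 and 14 but not 15. Its part in the interaction was not tested. It called 397 of 12506 genes whose sdCAM to MG ratio was higher after LPS (3.17%) and 155 whose ratio was lower (1.24%), and 290 in all without mouse 4 and 326 without mouse 6.

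Of the 397 genes whose ratio was higher after LPS, 335 were called higher in sdCAMs after LPS and not called at rest. The share of counts on the shortest class of genes moved with this contrast, at 8.65% to 24.1% in sdCAM libraries at rest and 31.2% to 36.1% after LPS, and the length adjustment left 307 higher and 137 lower. Nupr1, a stress-induced nuclear protein, lay at a mean of 33.2 CPM in sdCAMs and 30.3 CPM in MG at rest, and at 1383 and 28.2 CPM after LPS, an interaction of 5.64 ± 0.59 log2 units (adjusted p = 0.000614, scaled over these 12 libraries). Mrps14 and Mrpl27, mitochondrial ribosomal proteins, Idnk, a gluconate kinase, and Dynll1, a dynein light chain, followed at 4.12 to 4.68. The difference after LPS in Ccr2-/- mice was 2.18 for Nupr1 and 1.45 for Mrpl27, both called, and 0.28 to 0.69 for Mrps14, Idnk and Dynll1, not called. Ly96 went from 62.8 to 714 CPM in sdCAMs and from 33.8 to 14.4 CPM in MG (4.98 ± 0.7), and Psmb9 from 70.2 to 420 CPM and from 48.6 to 31.7 CPM (3.2 ± 0.57).

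Of the 155 genes whose ratio was lower after LPS, 79 were called lower in sdCAMs after LPS and not called at rest, and 32 were higher in both. Msr1 went from 1.07 to 1062 CPM in MG and from 270 to 2040 CPM in sdCAMs, an interaction of -6.65 ± 0.76 (adjusted p = 0.000654). Dab2 lay at 21.8 and 281 CPM in MG and at 2296 and 612 CPM in sdCAMs at rest and after LPS, so that a difference of 6.76 log2 units at rest was 1.31 after LPS. Lilrb4a, an inhibitory receptor of myeloid cells, changed sides, from 38.7 CPM in sdCAMs and 4.13 CPM in MG at rest to 30.4 and 170 CPM after LPS (-5.57 ± 0.6), as did Ripor2 (-4.3 ± 0.5). Stab1 was called higher in sdCAMs at rest (2.1, adjusted p = 0.00391) and not after LPS, with an interaction of -3.02 ± 0.54. F13a1, coagulation factor XIII A, stayed near 1406 and 1192 CPM in sdCAMs and lay at 0.0837 and 7.48 CPM in MG. Lilrb4a was higher in sdCAMs of Ccr2-/- mice after LPS (1.99), opposite to WT mice, whereas Msr1 and Dab2 were higher in both (1.51 and 2.24 in Ccr2-/-). Saa3 and Lcn2 were not called in the interaction (2.14 ± 1.8 and 2.37 ± 2.81). Saa3 went from 517 to 688448 CPM in sdCAMs and from 0.497 to 585 CPM in MG, and Lcn2 from 7.64 to 11200 CPM and from 0.0548 to 55.7 CPM.

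**Figure D5:**
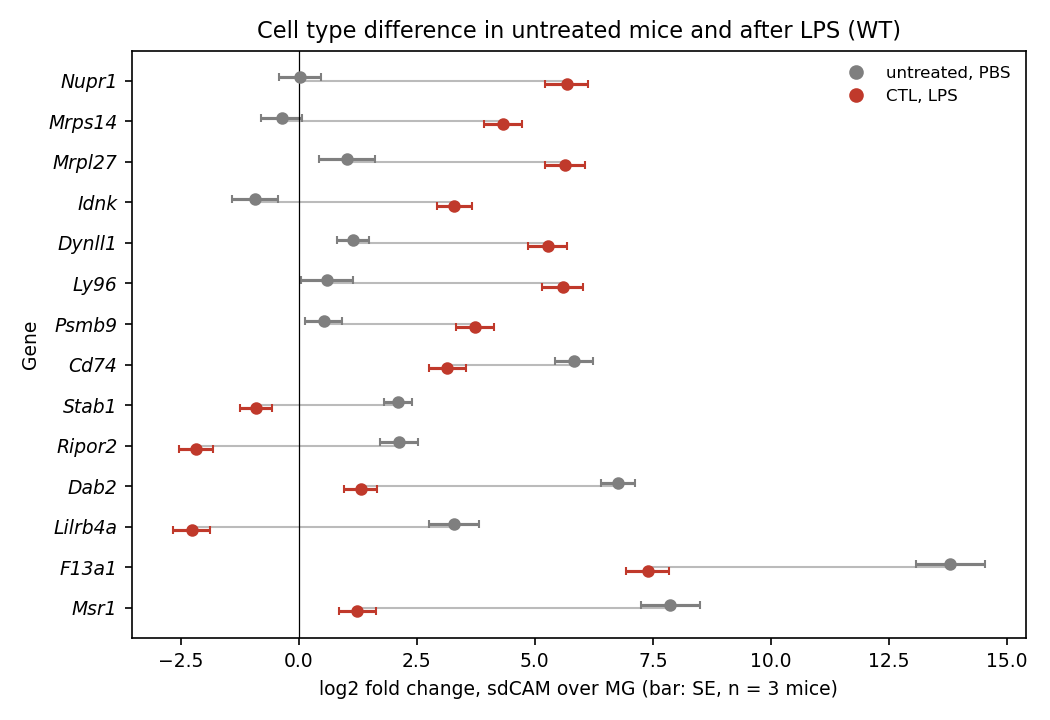
Log2 fold change of sdCAM over MG (x axis, bars show the SE, 3 mice each) in untreated WT mice (grey) and in CTL mice after LPS (red) for 14 genes with a called interaction (y axis). Ripor2, Lilrb4a and Stab1 lay above 0 at rest and below 0 after LPS, whereas Nupr1 went from 0.03 to 5.67.

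Markers of other cells were measured for the whole lists. The neuronal list was called higher in sdCAMs in 6 of 6 genes (background 21%). Some of these, Rbfox3 and Syt1 among them, passed the filter through sdCAMs only, so this count is set in part by the filter. The summed level of the list was 88.3 to 538 CPM in sdCAMs and 7.13 to 8.5 CPM in MG. It was highest in mouse 6, where Meg3 stood at 278 CPM and Snap25 at 112 CPM. In the oligodendrocyte list 2 of 5 tested were higher, Mobp among them (146 to 205 CPM summed, against 64.3 to 73.2 CPM), and in the astrocyte list Slc1a2 and Gja1, with Slc1a3 lower, 3 of 6 (48.8 to 93.3 CPM against 139 to 205 CPM). Ttr, the choroid plexus transthyretin, lay at 1464, 355 and 6.87 CPM in sdCAMs and 50.6, 21 and 6.83 CPM in MG (called higher, and not with the length adjustment), while Folr1, Kcnj13 and Clic6 did not pass the filter. Of the neutrophil list S100a8 and Mmp8 were called higher, Mmp8 not after length adjustment (3.33, adjusted p = 0.0506), with Retnlg, Ly6g and Ngp at 0 counts in all 6 libraries and S100a9 and Camp below the filter. The list summed to 260 to 2565 CPM in sdCAMs and 2.04 to 16.7 CPM in MG, and S100a8 alone lay at 2515, 259 and 509 CPM in sdCAMs. Of the monocyte list Ms4a4c was higher, at 329, 465 and 520 CPM in sdCAMs, and Ly6c2, Ccr2, Chil3 and F10 were below the filter (342 to 557 CPM summed, against 15.1 to 48 CPM). The T and NK cell list had no member above it, with at most 5.15 CPM summed in sdCAMs and 0 in MG, and for B cells, endothelium, mural cells, fibroblasts and erythroid cells the summed level was at most 38 CPM in any library. Dcn, of the fibroblast list, and Ly6c1, of the endothelial list, were higher in sdCAMs, at most 23.4 and 15.7 CPM, and Cd209a of the dendritic list at 14, 32 and 42 CPM. In the same lists Pecam1 (endothelial, -2.18, adjusted p = 0.0356, and -1.61 with adjusted p = 0.12 after length adjustment) and Itgae (dendritic, 0 CPM in the sdCAM libraries and 1.97, 6.85 and 3.33 CPM in MG, adjusted p = 0.0171) were called lower. The part of other cells in the differences above was not tested.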

How the data were processed

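RNA was sequenced from sorted sdCAMs and MG by single reads of a low-input library without molecular identifiers. Per the labels, the authors used bcl2fastq 2.20, STAR 2.7.11a and featureCounts 2.0.8, and DESeq2 1.46.0 for their tests, and they deposited raw counts per gene. The study's methods name mm10 or GRCm39 by date of the experiment, which leaves the build of these counts unsettled, and the strand setting is not given in the sources used here. From these counts, genes were filtered by filterByExpr, scaled by TMM and tested by edgeR 4.0.16 (R 4.3.3) with the mouse as a block, at an adjusted p (Benjamini-Hochberg) of 0.05 and a log2 limit of 1. The pairing comes from the labels, in which both cell types of a mouse carry its number. Deviations of the same mouse from the mean of its cell type correlated at 0.2, 0.17 and 0.1 across genes. Those of other mice correlated at -0.12, -0.08 and -0.03. Since deviations are centred on 3 mice, these negative values follow from the first ones and are no separate evidence of the pairing. Replicates were no duplicates (chi-square of 26.5 to 99 per degree of freedom between libraries). Library totals were 2386672 to 9259710 counts, and intervals and the floor of 3 counts cover counting error only.

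Gene lengths are summed exons of GENCODE M21 (GRCm38), matched by symbol for 98.2% of the genes tested. The length adjustment takes each library's lowess trend (span 0.3) of log2 level on log10 length as an offset. Alternatives were DESeq2 1.42.0, limma 3.58.1 voom with quality weights, other filters and scalings, thinning, other fold limits, all 18 WT libraries and leaving out each mouse. All columns matched a sample (0 unmatched). Scripts were tested on simulated data.

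Named genes were 10 defining markers, the 14 LPS response genes the study names, the 10 higher and 10 lower called genes of smallest p with the same direction in 3 mice and a mean of at least 10 CPM, up to 4 called and 2 uncalled members of each list, and up to 5 interaction genes each way. Other members of the lists were named after their values were seen. Some genes that these rules name are not reported here. The members, lists and tests were chosen with earlier results of these data known.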

Additional observations from a re-analysis of the deposited data

Results flagged for a closer look

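The genes below were those of the text whose sdCAM to MG ratio differed between CTL mice after LPS and untreated mice by a test of the interaction itself (edgeR quasi-likelihood test with the mouse as a block, adjusted p under 0.05). Values are log2 differences, above 0 where the ratio was higher after LPS. LPS and vehicle cannot be told apart in them.

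Higher ratios after LPS were found for Nupr1 (5.64), Mrps14 (4.68), Mrpl27 (4.61), Idnk (4.22) and Dynll1 (4.12). Among immune genes they were found for Dusp2 (9.53), Il27 (7.96), the chemokines Ccl24 (5.74), Ccl4 (4.84) and Pf4 (4.76), and the LPS co-receptor gene Ly96 (4.98). In untreated mice Dusp2 stood at 0 and Il27 at a mean of 0.117 CPM in sdCAMs, so that the fitted values of both depend on the prior count and are no measure of size. The immunoproteasome genes Psmb8 (2.23), Psmb9 (3.2) and Psmb10 (2.76) went this way together, as did the interferon-stimulated genes Isg15 (3.14), Bst2 (2.95) and Xaf1 (2.07) and the ferritin gene Ftl1 (2.76). With the length adjustment, Pf4 (2.86, adjusted p = 0.066), Isg15 (1.13, adjusted p = 0.4), Bst2 (1.05, adjusted p = 0.429), Psmb10 (1.73, adjusted p = 0.0608) and Ftl1 (1.32, adjusted p = 0.334) were no longer called.

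Lower ratios after LPS were found for the receptors and uptake genes Msr1 (-6.65), Dab2 (-5.46), Stab1 (-3.02), Fpr1 (-5.78), Ccr1 (-2.8) and Lilrb4a (-5.57), and for F13a1 (-6.42) and Ripor2 (-4.3). The immediate early and feedback genes Fos (-2.5), Dusp1 (-2.2) and Ier3 (-3.47) were lower too, as were the regulators Creb3l2 (-3.81), Zfp36l2 (-3.37), Runx1 (-2.57), Bhlhe41 (-1.91) and Zbtb16 (-5.27). The remaining genes were Cd74 (-2.69), Ifi204 (-1.96), Alox5 (-3.05) and the iron genes Tfrc (-3.15) and Slc40a1 (-2.58). F13a1, Fpr1 and Zbtb16 stood at 0.0837, 0.0258 and 0.274 CPM in MG of untreated mice, and Pf4 at 0.757 CPM, and Ccl24 stood at 0.288 CPM in MG after LPS, where the same holds. Of the genes with lower ratios, Bhlhe41 was not called with the length adjustment (-1.5, adjusted p = 0.0842).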

How the results depend on the processing

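Of 185 genes named, 161 were called, and 107 of these kept their call under each of the 17 settings tried for the comparison in WT CTL mice. The total of 4449 calls in these mice moved by over 1.5 times in 3 ways. It was 2829 to 4323 without single mice, 2620 at a log2 limit of 2, and 8155 on library totals without TMM scaling (1076 higher). That scaling and the length adjustment were chosen after seeing the data. With the length adjustment 6 genes called in either fit changed sign, Ccl3 (-0.34), Il18 (-1.72), B2m (-0.4), C1qa (-2.33), C1qb (-1.83) and Cebpb (-0.87), and the cause was not tested. In BLZ945 mice the 211 calls became 771 without the mouse block, 1554 with DESeq2, 416 with the length adjustment and 0 to 1369 without single mice. In untreated mice 1291 calls became 2297 with DESeq2 and 202 to 2182 without single mice. The interaction's 552 calls became 1101 with DESeq2 and 290 to 669 without single mice. In Ccr2-/- mice the count of 2331 was 1926 to 2385 without single mice. Without the mouse block, the other counts were 4525 in WT CTL mice, 2372 in Ccr2-/- mice, 1894 in untreated mice and 616 for the interaction, each within 1.5 times of the blocked count. A fit without 1 mouse rests on 2 pairs. Depth limits the sdCAM library of mouse 4 most, and with all 6 libraries thinned to its total 3308 genes were called.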
